A study of Mus musculus with 11 samples.

Results

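The genes described here are 10 genes on chromosome 4 that lie on both sides of Aco1, the gene that encodes Irp1, among the 24411 genes in the deposited count table. They were selected on the read counts of the Irp1−/− and WT samples, as genes that differed between these genotypes, so their values in that comparison, and in any other that contains the Irp1−/− samples, are given as a description with no test. The 10 genes are the noncoding RNAs 4930412C18Rik, 1700123O12Rik and Gm12505 and the protein-coding genes Plekhf2, Ints8, Rbm12b1, Map3k7, Tbc1d2, Tmeff1 and Zfp462.

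The study sequenced polyadenylated RNA from whole testes of 20-week-old mice to ask how loss of Irp1 affects spermatogenesis. There were 4 samples of WT mice (C57Bl/6J per the labels), 4 of Irp1−/− mice and 3 of Irp2−/− mice, all untreated. The Irp1−/− mice had a global knockout of Aco1 and the Irp2−/− mice one of Ireb2. Total counts lay between 15902473 and 22451417 per sample. The Irp1−/− line came from a single targeted allele on a C57Bl/6J background, for which no number of backcross generations is given in the sources used here. The paper describes WT controls as littermates from matings of heterozygous Irp1 mutants, though not for each sequenced sample. Neither the strain of the Irp2−/− mice nor their relation to the WT mice is given in these sources. All Irp1−/− samples carry the targeted allele together with the chromosome 4 around it, so loss of Irp1 and the flanking DNA cannot be told apart in these samples.

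Irp1 is a cytosolic protein that works as an aconitase when it holds an iron-sulfur cluster and otherwise binds iron-responsive elements in messenger RNAs. Irp2 binds the same elements and is degraded when iron is plentiful. Genes on one chromosome are inherited together more often the closer they lie, and in the Irp2−/− mice the targeted gene lies on another chromosome than Aco1.

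Levels are given as CPM, the counts of a gene scaled to a common library size after TMM normalization. The level of Aco1 RNA was lower but not absent in Irp1−/− testes, with 8.58 ± 0.622 CPM (SD, n = 4) against 11.8 ± 1.37 CPM (SD, n = 4) in WT. Ireb2 measured 140 ± 5.84 CPM in WT (SD, n = 4) but 62.2 ± 0.514 CPM in Irp2−/− testes (SD, n = 3). The markers of testicular cell types were measured alongside. Leydig cell markers (7 of 7 tested) had a summed level of 698 to 983 CPM in WT, 936 to 1130 CPM in Irp1−/− and 723 to 939 CPM in Irp2−/− testes, and 1 of them, Hsd17b3, was called higher in Irp1−/− testes. Sertoli cell markers (7 of 7 tested) summed to 950 to 1020 CPM in WT, 1060 to 1190 CPM in Irp1−/− and 953 to 1090 CPM in Irp2−/− testes, with 1 call, Clu, higher in Irp1−/−. Spermatocyte markers summed to 1190 to 1240 CPM in WT and 1140 to 1170 CPM in Irp1−/− testes, with no call among 7, and the spermatogonial, spermatid, peritubular, macrophage, endothelial, blood and epididymal lists held no call in Irp1−/− testes with edgeR. In Irp2−/− testes the endothelial marker Vwf was called, higher, and no other marker was. The 4 blood markers summed to 22.7 to 37.1 CPM in WT, 37.2 to 52.9 CPM in Irp1−/− and 24.5 to 38.4 CPM in Irp2−/− testes. Irp1−/− and WT thus did not overlap in the blood sums, nor did they in the Sertoli and spermatocyte sums. The 3 blood markers tested in Irp1−/− against WT had log2 fold changes from 0.09 to 2.78, with a median of 0.74. The blood marker Hbb-bs was at 0 in every sample, and the 6 epididymal markers summed to at most 4.50 CPM. The part of these marker differences in the values below was not tested, and in whole-testis RNA fewer cells of a type and less RNA per cell cannot be told apart.

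On the mm10 genome, Aco1 lies at chr4:40143265-40199009, and the 10 genes spread over 45.6 Mb around it, from chr4:9770585 to chr4:55418842. On the centromeric side were 4930412C18Rik (chr4:9770585-9823411, plus strand, 30.3 Mb from Aco1), 1700123O12Rik (chr4:10508031-10797802, minus strand, 29.3 Mb), Plekhf2 (chr4:10988662-11007619, minus strand, 29.1 Mb), Ints8 (chr4:11199158-11254265, minus strand, 28.9 Mb), Rbm12b1 (chr4:12138957-12148922, plus strand, 28.0 Mb) and Map3k7 (chr4:31963492-32023470, plus strand, 8.12 Mb). On the distal side were Tbc1d2 (chr4:46604390-46650340, minus strand, 6.41 Mb), Tmeff1 (chr4:48585071-48663132, plus strand, 8.39 Mb), Zfp462 (chr4:54944491-55083563, plus strand, 14.7 Mb) and Gm12505 (chr4:55410443-55418842, minus strand, 15.2 Mb). The positions are those of RefSeq on GRCm38.p6, the same build as mm10. The centromeric genes other than Map3k7 thus sat in a group far from Aco1, and between the nearest gene on either side and Aco1 there were 25 other tested genes for Map3k7 and 104 for Tbc1d2.

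The sequences upstream of 4 of the genes are shown because these 4 had the largest differences between Irp1−/− and WT samples among the 10. They are read from RefSeq (GRCm38.p6) on the strand of the gene, 5′ to 3′, and end at the last base before the gene as both RefSeq and GENCODE place its start. Capitals mark CG dinucleotides. The windows are chr4:9770335-9770584 for 4930412C18Rik (250 bases), chr4:10797812-10798052 for 1700123O12Rik (241 bases), chr4:55418843-55419092 for Gm12505 (250 bases) and chr4:46650341-46650449 for Tbc1d2 (109 bases).
4930412C18Rik: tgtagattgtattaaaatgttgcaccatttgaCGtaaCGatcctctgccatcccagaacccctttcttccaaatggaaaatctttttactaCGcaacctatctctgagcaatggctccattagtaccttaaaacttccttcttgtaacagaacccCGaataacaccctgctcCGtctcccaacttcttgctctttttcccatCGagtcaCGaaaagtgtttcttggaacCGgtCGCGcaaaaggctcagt
1700123O12Rik: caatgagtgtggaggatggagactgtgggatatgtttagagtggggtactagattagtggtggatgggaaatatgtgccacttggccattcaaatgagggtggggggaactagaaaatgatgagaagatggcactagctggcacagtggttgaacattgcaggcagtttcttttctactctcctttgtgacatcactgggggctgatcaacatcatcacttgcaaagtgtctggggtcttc
Gm12505: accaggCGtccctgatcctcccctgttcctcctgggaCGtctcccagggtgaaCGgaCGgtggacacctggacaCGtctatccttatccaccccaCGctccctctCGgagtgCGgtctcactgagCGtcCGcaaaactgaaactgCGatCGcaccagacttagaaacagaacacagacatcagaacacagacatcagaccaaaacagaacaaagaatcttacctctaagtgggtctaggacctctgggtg
Tbc1d2: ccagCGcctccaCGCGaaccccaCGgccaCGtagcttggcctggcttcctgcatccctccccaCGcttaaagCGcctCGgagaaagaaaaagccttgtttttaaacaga

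RefSeq promoter windows of 250 bases before an annotated transcript start were at hand for 6 of the 10 genes, and they were of unlike kinds. Those of Tbc1d2 and Tmeff1 run partly, and that of Map3k7 wholly, within the gene as positioned above. Those of the coding genes were rich in G and C, with 68.0% GC and 28 CG dinucleotides for Map3k7, 66.0% and 28 for Tbc1d2 and 78.0% and 39 for Tmeff1. Those of the noncoding genes held 44.0% GC and 10 CG dinucleotides for 4930412C18Rik, 47.6% and 1 for 1700123O12Rik, and 54.8% and 12 for Gm12505. Over 32851 RefSeq promoters the medians were 52.4% GC and 6 CG dinucleotides, so the window of 1700123O12Rik was poor in CG and the coding ones were rich. The motif GGGCGG, searched on both strands, occurred 2 times in the windows of Map3k7 and Tbc1d2 and 5 times in that of Tmeff1, and 32.7% of all promoters hold it. The TATA box motif TATAAA, searched in the same way, was in none of the 6 windows, and 12.4% of all promoters hold it. The same was true of the CCAAT box motif, held by 33.8% of all promoters, and of the palindromic cyclic AMP response element, held by 1.55%.

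Per kilobase of exon, the 10 genes were expressed at low to moderate levels in WT testis. The WT levels in TMM-normalised CPM per kilobase ran from 13.7 ± 0.708 for Tmeff1 (SD, n = 4) through 9.85 ± 0.418 for Rbm12b1, 9.67 ± 0.485 for Map3k7, 7.40 ± 0.745 for Plekhf2, 4.16 ± 0.483 for Tbc1d2, 4.09 ± 0.380 for 1700123O12Rik, 3.98 ± 0.058 for Ints8, 1.92 ± 0.536 for Gm12505 and 1.55 ± 0.0551 for Zfp462 to 0.346 ± 0.0579 for 4930412C18Rik. The sample ranges of Rbm12b1 and Map3k7 overlapped, as did those of Tbc1d2, 1700123O12Rik and Ints8, and those of Gm12505 and Zfp462, so the order within these sets was not larger than the spread between samples. In Irp1−/− testes Zfp462 stood at 2.75 ± 0.191 CPM per kilobase (SD, n = 4), above Tbc1d2 at 0.853 ± 0.0365 CPM per kilobase (SD, n = 4), whereas in WT testes it lay below it.

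In Irp1−/− testes 4 of the 10 genes were higher than in WT (Ints8, Rbm12b1, Tmeff1 and Zfp462) and 6 were lower (4930412C18Rik, 1700123O12Rik, Plekhf2, Map3k7, Tbc1d2 and Gm12505), all 3 noncoding RNAs among the latter. Every one of the 10 passed the filter on low counts, and for every one the 4 Irp1−/− samples did not overlap the 4 WT samples. Of the 16002 genes tested, 6.63% did not overlap in this way (3.21% higher and 3.42% lower) and 1.02% had an adjusted p under 0.05 in edgeR, and since the 10 genes were picked for this difference nothing is read from their count. Their median log2 fold change was -0.38 and their median size of change 0.62, against medians of -0.001 and 0.07 over all tested genes, and both medians of the 10 stayed the same with Gm12505 set to the limit given for it below.

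**Figure D1:**
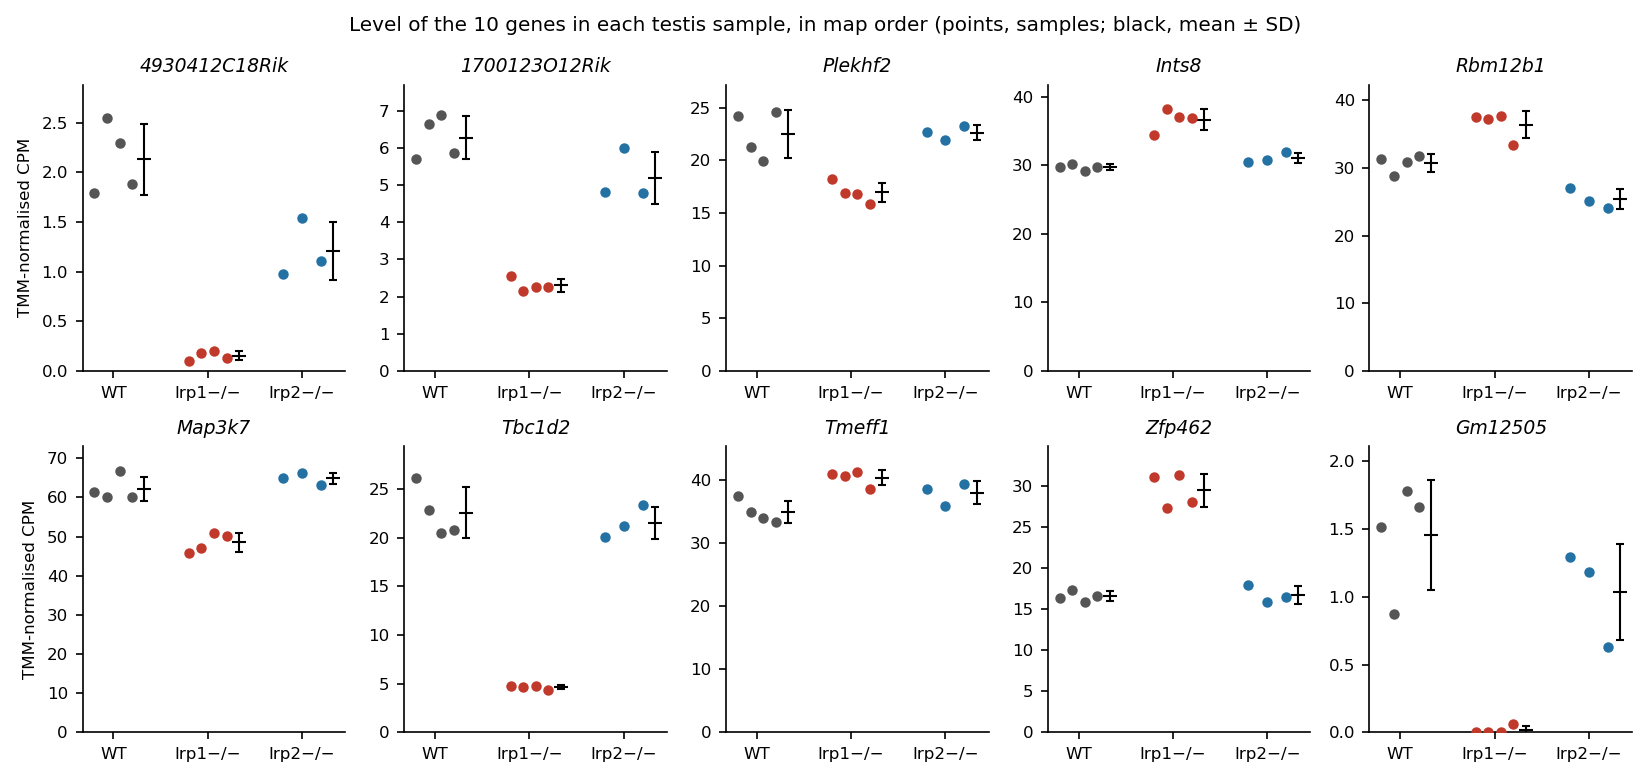
Level of each of the 10 genes in TMM-normalised CPM (vertical axes, linear, from 0) in the 4 WT, 4 Irp1−/− and 3 Irp2−/− samples, with panels in map order from the centromere. Points are samples and black marks are the mean ± SD. The Irp1−/− samples lie apart from the WT samples in every panel, and most strongly for 4930412C18Rik, 1700123O12Rik, Tbc1d2, Zfp462 and Gm12505.

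The noncoding RNA Gm12505 was close to the limit of detection in Irp1−/− testes. It had 27, 14, 31 and 30 counts in the 4 WT samples, 29, 23 and 12 counts in the 3 Irp2−/− samples, and 0, 0, 0 and 1 counts in the 4 Irp1−/− samples. In TMM-normalised CPM the WT samples lay between 0.870 and 1.78 and the Irp2−/− samples between 0.631 and 1.29, and the 3 Irp1−/− samples without a count could have held up to 0.135 to 0.157 CPM, the level of 3 counts. All WT and Irp2−/− samples were above that limit, and none of the Irp1−/− samples was. Scaled for library size, the single count in Irp1−/− against 102 in WT gave a ratio of 0.881%, with an exact 95% counting interval of 0.0221% to 5.02%, which covers counting error only. Gm12505 was never above 2 CPM, so this is a difference between a weakly expressed RNA and one hardly detected.

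4930412C18Rik was the other noncoding RNA that was nearly absent. Its level was 1.79, 2.55, 2.30 and 1.88 CPM in the WT samples, 0.105, 0.180, 0.200 and 0.126 CPM in the Irp1−/− samples, and 0.980, 1.54 and 1.11 CPM in the Irp2−/− samples. The 3 genotypes did not overlap, with WT highest, Irp2−/− between and Irp1−/− lowest. The log2 fold change in Irp1−/− against WT was -3.72 (SE 0.32), and the 12 counts in Irp1−/− against 147 in WT gave a ratio of 7.33% (exact 95% counting interval 3.70% to 13.2%).

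1700123O12Rik, the neighbouring noncoding RNA 685 kb away, kept more of its level. It measured 5.71, 6.65, 6.90 and 5.86 CPM in WT, 2.56, 2.16, 2.25 and 2.26 CPM in Irp1−/−, and 4.81, 6.00 and 4.79 CPM in Irp2−/− testes. The Irp1−/− samples were all below the other 7, at 36.7% of the WT mean, and the log2 fold change was -1.44 (SE 0.14). Between these noncoding RNAs lies 4930448K20Rik, which had 32.0 CPM in WT and 29.2 CPM in Irp1−/− testes on average and overlapped between them (log2 fold change -0.13, edgeR adjusted p = 0.497).

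Tbc1d2 showed the largest difference among the coding genes. It encodes Armus, a GTPase-activating protein for RAB7 that links RAC1 signalling to late endosomes and lysosomes. The WT samples had 26.1, 22.9, 20.5 and 20.7 CPM, the Irp1−/− samples 4.76, 4.68, 4.74 and 4.34 CPM, and the Irp2−/− samples 20.0, 21.2 and 23.3 CPM. The Irp1−/− samples lay close together at 20.5% of the WT mean, and the Irp2−/− samples lay within the range of WT apart from 1 slightly below it. The log2 fold change in Irp1−/− against WT was -2.28 (SE 0.096). The tested genes directly beside it did not follow. Coro2a, 2.46 kb away, had a log2 fold change of -0.01 (edgeR adjusted p = 0.95), and Gabbr2, 12.0 kb away, one of 0.16 (adjusted p = 0.788).

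Plekhf2 encodes phafin 2, a protein of early endosomes that binds phosphoinositides. Its level was 24.2, 21.3, 20.0 and 24.6 CPM in WT, 18.2, 16.9, 16.8 and 15.9 CPM in Irp1−/−, and 22.7, 21.9 and 23.3 CPM in Irp2−/− testes. The highest Irp1−/− sample was below the lowest WT sample, and the Irp2−/− samples sat inside the WT range. The log2 fold change was -0.41 (SE 0.075), or 75.4% of the WT mean.

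Map3k7 encodes the kinase TAK1, which passes signals from cytokine and transforming growth factor receptors to NF-κB and to stress kinases. It was the most abundant of the 10 per library, with 61.4, 60.2, 66.7 and 60.2 CPM in WT, 45.9, 47.1, 50.8 and 50.3 CPM in Irp1−/−, and 65.0, 66.3 and 63.3 CPM in Irp2−/− testes. The Irp1−/− samples were all below the other 7, at 78.2% of the WT mean, and the log2 fold change was -0.36 (SE 0.05). Of the 3 tested genes on either side of Map3k7, Casp8ap2 also did not overlap between Irp1−/− and WT (20.4 against 24.1 CPM, log2 fold change -0.24, edgeR adjusted p = 0.0625).

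Zfp462, a large zinc finger protein of chromatin, had the largest positive difference among the 10. Its level was 16.4, 17.3, 15.9 and 16.7 CPM in WT, 31.1, 27.3, 31.3 and 28.0 CPM in Irp1−/−, and 17.9, 15.8 and 16.5 CPM in Irp2−/− testes. The Irp1−/− samples were at 178% of the WT mean, and the lowest of them was well above the highest of the other 7. The log2 fold change was 0.83 (SE 0.066). Zfp462 and Gm12505 lie 327 kb apart with 1 tested gene between them, Rad23b, a nucleotide excision repair factor, and the 3 took different directions: Zfp462 was higher and Gm12505 lower in Irp1−/− testes, and Rad23b fell from 417 ± 17.8 to 361 ± 11.2 CPM (SD, n = 4 each, log2 fold change -0.21, SE 0.039, edgeR adjusted p = 0.00408).

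Ints8 encodes a subunit of the Integrator complex, which cleaves nascent RNAs, small nuclear RNAs among them. Its WT samples were close together at 29.7, 30.2, 29.1 and 29.8 CPM, the Irp1−/− samples had 34.5, 38.2, 37.1 and 37.0 CPM, and the Irp2−/− samples had 30.5, 30.7 and 31.9 CPM. All Irp1−/− samples were above the other 7, at 123% of the WT mean, with a log2 fold change of 0.30 (SE 0.053). The 3′ parts of Ints8 and Ccne2, the gene of cyclin E2 on the opposite strand, overlap, and 515 of the 7605 different 50-base runs of Ints8 transcripts, the length of the reads, also occur in Ccne2 on either strand. Ccne2 averaged 32.6 ± 2.26 CPM in WT and 28.5 ± 0.526 CPM in Irp1−/− testes (SD, n = 4 each, log2 fold change -0.19, edgeR adjusted p = 0.123). Its Irp1−/− samples (28.2 to 29.3 CPM) all lay below its WT samples (29.9 to 35.4 CPM), as was so for 3.42% of all tested genes. This direction is opposite to that of Ints8. The library kit keeps the strand, but the strand setting used for counting is not given in the sources used here, so reads in the overlap could have been given to either gene.

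Tmeff1 encodes a transmembrane protein with EGF-like and follistatin-like domains and had the smallest difference of the 10. It measured 37.5, 35.0, 34.0 and 33.4 CPM in WT, 41.0, 40.6, 41.4 and 38.7 CPM in Irp1−/−, and 38.7, 35.9 and 39.3 CPM in Irp2−/− testes. The Irp1−/− samples were above WT, at 116% of its mean, but overlapped the Irp2−/− samples. The log2 fold change against WT was 0.21 (SE 0.052). The gene on its distal side, Murc, 0.382 kb away, was expressed at 1.06 CPM in WT and 1.72 CPM in Irp1−/− testes and overlapped between them (log2 fold change 0.69, edgeR adjusted p = 0.221).

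Rbm12b1 encodes a protein with RNA recognition motifs, and its samples lay above WT in Irp1−/− and below WT in Irp2−/− testes. The lower level in Irp2−/− testes did not stay past the threshold in every setting, as given below. It measured 31.4, 28.9, 30.9 and 31.9 CPM in WT, 37.5, 37.2, 37.7 and 33.4 CPM in Irp1−/−, and 27.1, 25.2 and 24.0 CPM in Irp2−/− testes. The 3 genotypes did not overlap, and the log2 fold change in Irp1−/− against WT was 0.25 (SE 0.055).

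Reads of Rbm12b1 can come from a near-copy, Rbm12b2, which lies 33.3 kb away on the same strand. The longest coding sequences of both genes in GENCODE were 98.1% identical over 2505 aligned bases, with an identical run of 1455 bases, and 60.8% of the 3205 different 50-base runs of Rbm12b1 transcripts also occur in another gene, 1912 of them in Rbm12b2. A stretch of 90 coding bases, positions 1405 to 1494 counted from the start codon of each, is shown as an example of how little sets them apart. Capitals mark the 2 positions that differ.
Rbm12b1: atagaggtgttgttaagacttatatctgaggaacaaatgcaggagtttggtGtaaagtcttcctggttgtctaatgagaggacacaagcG
Rbm12b2: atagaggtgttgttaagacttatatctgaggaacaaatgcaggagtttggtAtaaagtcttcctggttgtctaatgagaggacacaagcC
Rbm12b2 itself had 8.51 ± 0.991 CPM in WT, 8.77 ± 0.624 CPM in Irp1−/− and 9.85 ± 0.864 CPM in Irp2−/− testes (SD, n = 4, 4 and 3) and was called in neither knockout. Added together, Rbm12b1 and Rbm12b2 lay between 37.7 and 41.6 CPM in WT, 42.5 and 46.4 CPM in Irp1−/−, and 33.1 and 36.8 CPM in Irp2−/− testes. The sums were also apart in all 3 genotypes, but with part of the reads shared the values of each copy alone are uncertain.

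The comparison of Irp2−/− with WT testes asked whether the same genes also differ in a knockout of the other iron regulatory protein, whose gene lies elsewhere. The Irp2−/− samples had no part in the choice of the genes, but the WT samples are the same ones, so the comparison is independent on the knockout side alone. All 10 genes passed the filter on low counts, and 1 was called, Rbm12b1, which fell by 0.27 on the log2 scale (SE 0.065, edgeR adjusted p = 0.0357), to 82.7% of the WT mean. The share called over the 16154 tested genes was 1.21%, and 0.842% when only lower calls are counted. The call of Rbm12b1 did not hold with DESeq2 (adjusted p = 0.068) or without Irp2−/− replicate 2 or 3 or WT replicate 1, 3 or 4 (adjusted p from 0.0661 to 0.167).

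The remaining genes gave no call in Irp2−/− testes. 4930412C18Rik came next, with a log2 fold change of -0.82 (SE 0.24, edgeR adjusted p = 0.114) and groups that did not overlap, and its 73 counts against 147 in WT gave a ratio of 56.5% (exact 95% counting interval 42.1% to 75.4%). Gm12505 had 71.0% of the WT mean with groups that overlapped (log2 fold change -0.48, SE 0.29, adjusted p = 0.687), and 1700123O12Rik had 82.8% (log2 fold change -0.27, SE 0.13, adjusted p = 0.534). All 3 noncoding RNAs averaged lower in Irp2−/− testes than in WT, none past the threshold. They were chosen for differing between Irp1−/− and these same WT samples, and were lower there. That choice favours high WT values and so a lower mean here, and nothing is read from the shared direction. The log2 fold changes of the other coding genes were small, from -0.07 (SE 0.084, adjusted p = 0.903) for Tbc1d2 to 0.12 (SE 0.061, adjusted p = 0.555) for Tmeff1, with 0.01 (SE 0.077) for Plekhf2, 0.02 (SE 0.08) for Zfp462, 0.06 (SE 0.053) for Map3k7 and 0.07 (SE 0.059) for Ints8. Ints8 was among the 3 genes whose Irp2−/− and WT samples did not overlap, with 4930412C18Rik and Rbm12b1, and 9.23% of all tested genes did not overlap in this comparison. The median size of change of the 10 was 0.10, against 0.07 over all tested genes.

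**Figure D2:**
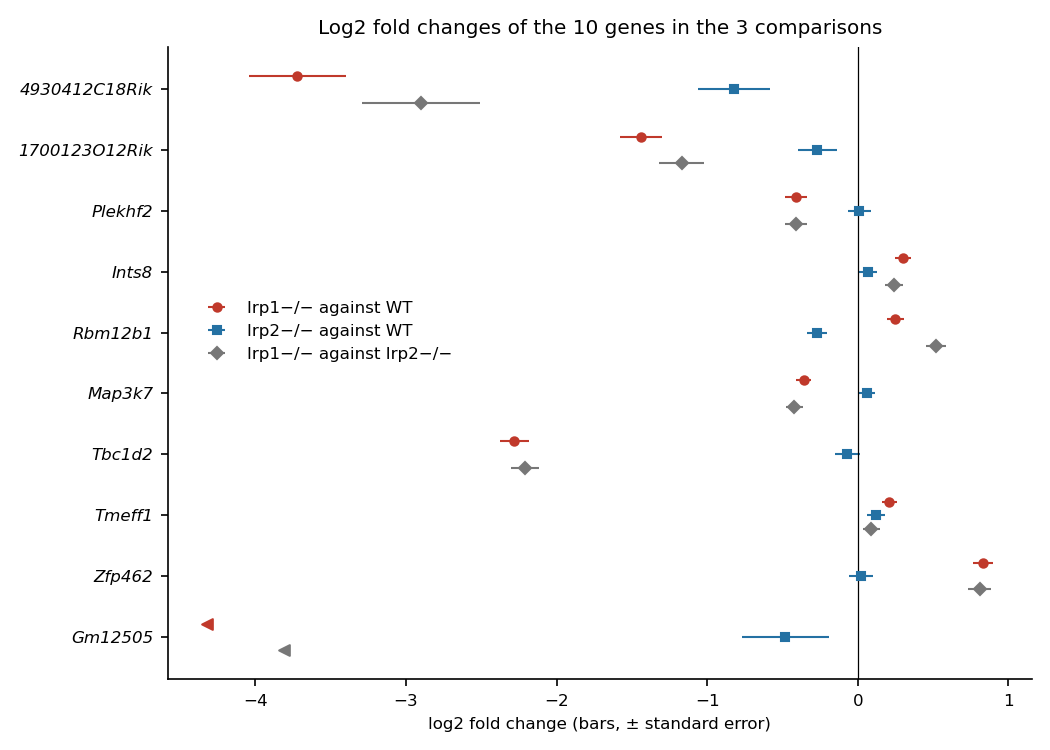
Log2 fold change (horizontal axis) of each of the 10 genes in Irp1−/− against WT (red circles), Irp2−/− against WT (blue squares) and Irp1−/− against Irp2−/− (grey diamonds), with bars of ± standard error. Triangles for Gm12505 mark the upper end of the counting interval, -4.32 against WT and -3.81 against Irp2−/−. The red and grey marks lie close together for most genes, and the blue squares lie near 0 except for 4930412C18Rik, Gm12505, 1700123O12Rik and Rbm12b1.

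Set against the Irp2−/− samples in place of WT, the Irp1−/− samples gave values of similar size. The log2 fold changes were -2.90 (SE 0.39) for 4930412C18Rik, -1.17 (SE 0.15) for 1700123O12Rik, -0.41 (SE 0.073) for Plekhf2, -0.42 (SE 0.054) for Map3k7, -2.21 (SE 0.095) for Tbc1d2 and 0.81 (SE 0.075) for Zfp462. For Rbm12b1 it was 0.52 (SE 0.065), larger than against WT, and for Ints8 0.24 (SE 0.06). For Tmeff1 it was 0.09 (SE 0.058), and this was the gene whose samples overlapped, while the samples of the other 9 did not overlap, as was the case for 15.2% of the 16281 genes tested in this comparison. Since the same Irp1−/− samples chose the genes, these values are no separate evidence.

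The chromosome around Aco1 was then read as a whole. Between the outermost of the 10 genes 228 genes were tested in Irp1−/− against WT, and 17 (7.46%) were called, the 10 among them. Apart from the 10 themselves 7 of 218 (3.21%) were called. The 10 were chosen for differing in this comparison, so keeping them raises the share and leaving them out lowers it. Neither share is thus a fair match for those of other regions. Over the rest of chromosome 4 the share was 1.15% (9 of 785), and over all other chromosomes 0.918%. The ends of the stretch were set by genes chosen for differing, so they do not mark where differences stop. Past its distal end lie Frrs1l (log2 fold change -0.735), Dnajc25 (0.88), Hdhd3 (0.913) and Alad (0.535), which count with the rest of chromosome 4. They are named for size alone, whether called or not. Within the stretch, too, some genes with large values were not called, such as Gm13306 (-2.83) and Ccl27b (-1.23). The 7 called within the stretch were Aco1 itself, Gm20878 (log2 fold change -0.71), Gm21586 (-0.78), Fam205a2 (-0.92), Rad23b (-0.21), Xpa (0.49) and Tmem246 (0.27), 5 lower and 2 higher. DESeq2 called the same 7 and Gm13305. In edgeR 35 of the 218 had an unadjusted p under 0.05, where 12.1% of all tested genes did. Gm20878, Gm21586 and Fam205a2 all lie within chr4:41941634-42537578, and without these 3 and the targeted gene Aco1 the share was 1.40% (3 of 214). These genes were left out because they were called, while uncalled genes of the same interval were kept. The share falls by this choice alone, so nothing is read from it. Xpa encodes a damage recognition factor of nucleotide excision repair, with 5.03 ± 0.544 CPM in WT and 7.08 ± 0.268 CPM in Irp1−/− testes (SD, n = 4 each, edgeR adjusted p = 0.0258). The median size of change of the 218 was 0.07, the same as over all other chromosomes. In Irp2−/− against WT, none of the same stretch's 220 other tested genes was called with edgeR or DESeq2 (19 had an unadjusted p under 0.05 in edgeR), where the share was 2.14% over the rest of chromosome 4 and 1.17% over all other chromosomes.

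**Figure D3:**
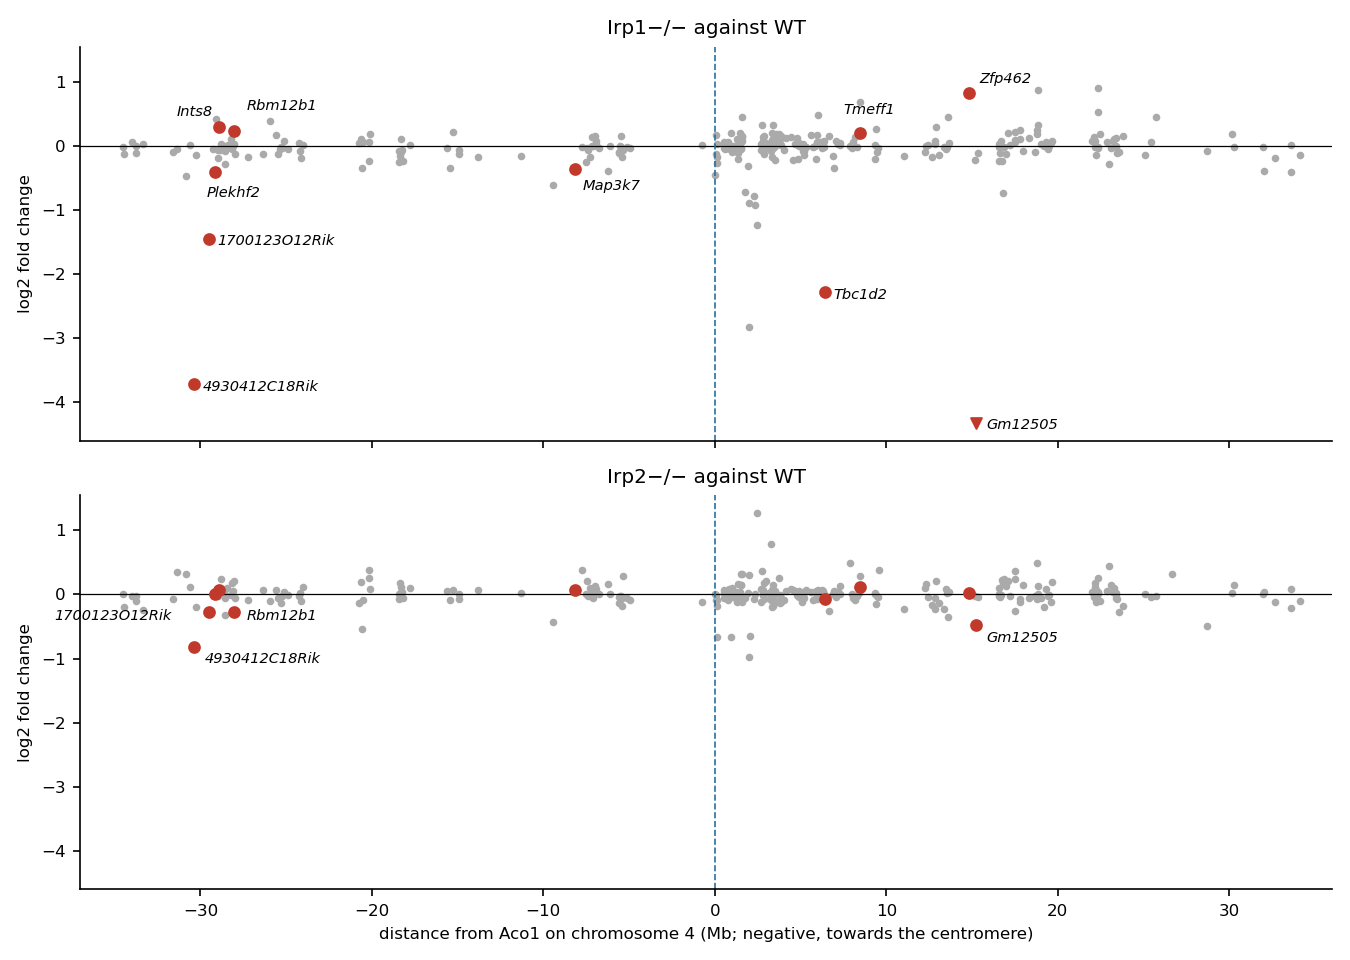
Log2 fold change (vertical axes) of the tested genes on chromosome 4 against their distance from Aco1 in Mb (horizontal axis, dashed line at Aco1), in Irp1−/− against WT (top) and Irp2−/− against WT (bottom). Red marks are the 10 genes, grey points all others, and the triangle for Gm12505 is the upper end of its counting interval. In the top panel 4930412C18Rik, 1700123O12Rik, Tbc1d2, Zfp462 and Gm12505 stand apart from the grey genes at the same distance, while others such as Tmeff1 and Ints8 lie among them, and in the bottom panel 4930412C18Rik is the lowest of the 10.

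Distance from Aco1 did not order the sizes of the differences among the 10. The largest were at 30.3 Mb (4930412C18Rik) on the centromeric side and at 15.2 Mb (Gm12505) and 6.41 Mb (Tbc1d2) on the distal side, and the nearest genes other than Tbc1d2, Map3k7 at 8.12 Mb and Tmeff1 at 8.39 Mb, had log2 fold changes of -0.36 and 0.21. Both sides held higher and lower genes, with 2 higher and 4 lower on the centromeric side and 2 higher and 2 lower on the distal side. The nearest tested genes on either side of the 10, none of them among the 10, were 17 different genes, of which 1 (5.88%), Rad23b, was called, where 1.02% of all tested genes were. Their log2 fold changes ran from -0.60 to 0.69 with a median size of 0.12, against 0.07 over all tested genes.

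**Figure D4:**
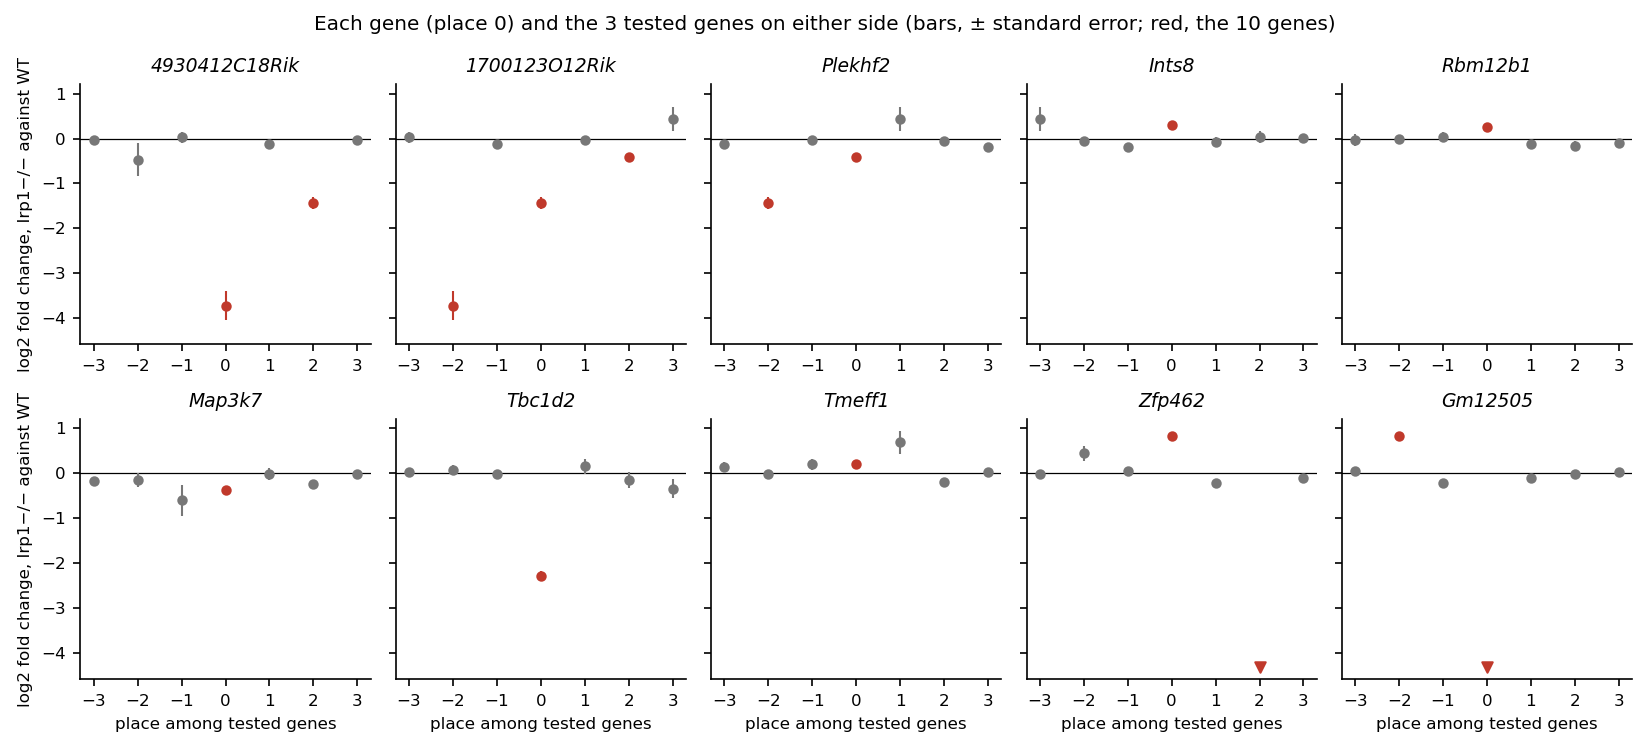
Log2 fold change in Irp1−/− against WT (vertical axes) of each of the 10 genes (place 0) and of the 3 tested genes on either side in map order (horizontal axes), with bars of ± standard error. Red marks are the 10 genes, grey marks other genes, and triangles for Gm12505 are the upper end of its counting interval. The grey neighbours lie between -0.60 and 0.69 in every panel.

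The partners of the coding genes, from lists of the complexes and pathways they belong to, gave no call among 54 tested genes with edgeR or DESeq2 in either knockout. In edgeR 3 of them had an unadjusted p under 0.05 in Irp1−/− testes and 0 in Irp2−/− testes, where 12.1% and 9.42% of all tested genes did. None of the 13 other tested Integrator subunits was called, with log2 fold changes in Irp1−/− against WT from -0.17 to 0.11 against 0.30 for Ints8. The 3 most abundant of them, Ints10, Ints6 and Asun, had 219, 211 and 129 CPM in Irp1−/− and 227, 223 and 129 CPM in WT testes. None of the 15 other tested genes around TAK1 was called, and its binding partners Tab1, Tab2 and Tab3 had log2 fold changes of 0.08, -0.04 and 0.01 in Irp1−/− testes. For Tbc1d2, none of the 9 other tested genes of RAB7 and RAC1 handling was called, with 0.03 for Rab7 and 0.10 for Rac1. The same held for the 7 tested genes listed with Plekhf2, where its paralog Plekhf1 had 0.19 (edgeR adjusted p = 0.599), and for the 7 listed with Zfp462, where Ehmt1 and Ehmt2, the methyltransferases of histone H3 lysine 9, had 0.04 and -0.02. Rbm12 (-0.10) and, beside Tmeff1, Msantd3 (0.20, adjusted p = 0.576) were not called, and Tmeff2, below 1 CPM, was not tested.

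Across the 11 samples, likeness of pattern was measured by Pearson's r of log2 CPM, as a description in which the distance between the Irp1−/− samples and the other 7 weighs most. The gene most like 4930412C18Rik among all tested genes was 1700123O12Rik and the reverse held as well (r = 0.982). For Gm12505 it was Gm20878 on the same chromosome (r = 0.965), one of the 7 called genes above, which had 40.5 CPM in WT and 24.8 CPM in Irp1−/− testes. For Ints8 and Tmeff1 the most alike were also on chromosome 4, Dnajc25 (r = 0.948) and Ttc39a (r = 0.958). For the other 5 they were on other chromosomes: Tmem181b-ps on chromosome 17 for Tbc1d2 (r = 0.981) and Map3k7 (r = 0.955), Tcte3 on chromosome 17 for Zfp462 (r = 0.953), Galc on chromosome 12 for Plekhf2 (r = 0.972) and Ppef1 on chromosome X for Rbm12b1 (r = 0.978).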

How the data were processed

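The authors deposited raw read counts per gene, without normalization, from stranded polyadenylated RNA libraries sequenced as 50 bp paired-end reads. They aligned the reads to mm10 in an nf-core pipeline for RNA-seq, and the counting tool is not given in the sources used here. DESeq2 is named in the submitters' processing notes. Columns were assigned to genotypes by the labels. A further letter in the column names (R in replicate 6 of Irp1−/−, L elsewhere) has no stated meaning and was left unused. In each of the 15 within-genotype pairs the samples differed beyond counting noise, so none was counted as a copy. That replicates are separate animals is not stated for each label, and p-values measure the spread between these samples.

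Counts were analysed in R 4.3.3 with edgeR 4.0.16 (TMM, filterByExpr, robust quasi-likelihood test, Benjamini-Hochberg adjustment over all tested genes, call at an adjusted p under 0.05), with the samples of the 2 genotypes compared. The SE of a log2 fold change is its size divided by the square root of F. CPM were scaled by TMM over all 11 samples, and levels per kilobase used GENCODE exon lengths. In simulated counts for Irp1−/− against WT (16002 genes, 200 changed), 94% of genes changed 2-fold were recovered and 7.39% of calls were false. For Irp2−/− against WT (16154 genes, 200 changed), 83% of genes changed 2-fold were recovered and 8.16% of calls were false. Changes smaller than 2-fold were not simulated.

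The 10 genes and the lists of partners and markers were chosen with earlier results of these data known. Besides the 10, genes were named if targeted, called within the stretch, nearest to one of the 10, listed as partners or most alike in pattern. Some genes past the distal end of the stretch were named for the size of their log2 fold change. Alternatives were RLE scaling, other filters, DESeq2 1.42.0, a fit of all 11 samples, a replicate block and leaving out each replicate.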

Additional observations from a re-analysis of the deposited data

Results flagged for a closer look

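Within groups of 4 samples, 26 groups of values were examined for a sample standing apart (Dixon's test at the 95% level), and 2 stood apart, where chance gives about 1.3. In Irp1−/− testes, Rbm12b1 measured 33.4 CPM in replicate 7 and 37.2 to 37.7 CPM in the other 3, a gap of 0.887 of the whole range. Replicate 7 still lay above every WT sample. In the same group Gm12505 measured 0.0628 CPM in replicate 7, from its single count, and 0 in the other 3, so that the gap made up the whole range. That outcome was fixed by the single count, so nothing is read from 2 against 1.3.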

How the results depend on the processing

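In Irp1−/− against WT the 10 genes kept their direction in all 138 values from the alternatives, and 2 values, both of Gm12505, moved by more than the spread between samples. The genes were chosen for differing between these same samples, so the kept direction is a description and no support for the differences. For the same reason nothing is read from how many of the 10 passed the threshold, but this number varied with the setting. It was 10 in the main fit, where 1.02% of all tested genes passed. With DESeq2 it was 7, where 8 of the 10 had an adjusted p, and with a replicate left out it lay between 8 and 10. With at least 10 counts required in every sample, 4930412C18Rik and Gm12505 dropped out. The number of all genes called in Irp1−/− against WT was 164, and lay between 55 and 216 when 1 replicate was left out, with 55 without Irp1−/− replicate 1, 102 without Irp1−/− replicate 6, 84 without WT replicate 2 and 106 without WT replicate 4. In Irp2−/− against WT it was 196, and lay between 118 and 223, with 118 without Irp2−/− replicate 2. The count of the 10 genes called there was 1 and fell to 0 with DESeq2 and to between 0 and 1 with a replicate left out. Small log2 fold changes in Irp2−/− testes changed sign without a replicate, those of Plekhf2 to between -0.05 and 0.06, of Zfp462 to between -0.03 and 0.06, and of Tbc1d2 to between -0.14 and 0.01. The cause was not tested.

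The shared replicate numbers are not said to pair the mice, and the deviations of same-numbered samples correlated by 0.0323 to 0.112 against WT. In Irp2−/− and WT, 4 of the 6 samples with a shared number correlated best with their own number. Some such matches arise by chance, and how many was not estimated, so nothing on pairing is read from this count. With the replicate number as a block, 439 genes were called in Irp1−/− against WT and 132 in Irp2−/− against WT, where the adjusted p of Rbm12b1 was 0.144 and 0 of the 10 genes were called. The block left 2 shared numbers in the former. Depth limits Gm12505 and 4930412C18Rik, which had 1 and 12 counts over the 4 Irp1−/− samples.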
